A study of Mus musculus with 18 samples.

Results

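Socs1, Socs2, Socs3 and Cish, which encode inhibitors of cytokine receptor signalling, Stat3, Stat4, Stat5a and Stat5b, which encode transcription factors that those receptors activate, and Pim1 and Bcl6, genes known to respond to STAT5, were followed in mouse macrophages. The 10 genes were found as the probe sets to which the array annotation gives exactly 1 symbol from this set. That gave 17 of the 45141 probe sets on the array, and 10 of the 17097 genes tested. Socs2 was read by 4 probe sets and Stat3, Stat5a, Stat5b and Bcl6 by 2 each, and of these the brightest on average stood for its gene.

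The cells were macrophages grown from the bone marrow of male FVB/NJ mice aged 10 to 14 weeks, of the wild type (WT) or lacking Klf3 (knockout, KO), a gene for a zinc finger protein of the Krüppel-like family that mostly represses transcription. Marrow was cultured for 7 to 10 days with 20% medium conditioned by L929 cells, which supplies the macrophage growth factor M-CSF. All cells were then washed and moved to regular medium without L929 medium. In each genotype, cells were taken at once (0 h), after 8 h with phosphate-buffered saline as vehicle, or after 8 h with lipopolysaccharide (LPS), a bacterial cell wall component that activates Toll-like receptor 4, at 100 ng/mL. Each of the 6 groups held 3 samples, and each sample was read on 1 Affymetrix HT MG-430PM array. The labels name no Klf3 allele. They also leave unstated whether the 3 samples of a group came from different mice or cultures. The p-values below therefore reflect sample-to-sample spread that may be technical.

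Cytokine receptors such as those for GM-CSF, interleukin 6 and interferons signal through JAK kinases, which phosphorylate STAT proteins so that they pair, enter the nucleus and bind DNA. CIS (the product of Cish), SOCS1, SOCS2 and SOCS3 are made in response and bind receptors or JAKs, which damps the same pathway. Cish, Socs2 and Pim1 are widely used as readouts of STAT5, and Socs3 of STAT3. BCL6 is a transcriptional repressor whose DNA motif resembles that of STAT proteins. In macrophages, SOCS1 and SOCS3 are known as feedback inhibitors induced by LPS, partly through interferon and interleukin 6 or 10 made by the cells themselves.

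Promoters are shown first because a STAT motif stood in the window of 3 of the 9 genes with an entry. RefSeq promoter windows on GRCm38.p6, from 250 bases before to 50 bases after an annotated start, were given for 9 of the 10 genes at 14 starts, with no entry for Socs2. The letters TTCNNNGAA, a STAT motif that reads the same on both strands, were found in the windows of Socs3, Cish and Bcl6. In the stretches below, capitals mark the motif, and the strand is that of the gene. Socs3 had 1 match, at chr11:117969502-117969530 (minus strand). Cish had both of its matches just past the annotated start, at chr9:107296656-107296681 (plus strand). Bcl6 had 3 matches before its more downstream start, at chr16:23981353-23981461 (minus strand), and 1 before the other, at chr16:23988952-23988980 (minus strand).
Socs3: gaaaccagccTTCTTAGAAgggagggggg
Cish: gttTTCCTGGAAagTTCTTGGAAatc
Bcl6, downstream start: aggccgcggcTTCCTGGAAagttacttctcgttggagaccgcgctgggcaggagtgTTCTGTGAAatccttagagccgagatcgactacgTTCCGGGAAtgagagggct
Bcl6, upstream start: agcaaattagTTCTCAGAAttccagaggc

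Over all 32851 RefSeq windows, 7.02% held this motif at least 1 time in the 250 bases before the start and 0.0274% (9 windows, 1 of them that of Bcl6) at least 3 times. With the 50 bases after the start included, a step taken after the sequences were seen and the one that adds Cish to Socs3 and Bcl6, 8.30% of windows held it at least 1 time and 0.457% held it at least 2 times. The letters CCNCNCCC on either strand, a KLF and SP motif, were found before the start in 45.93% of windows. At least 3 matches before the start were found in 16.7% of windows. There were 2 matches for Socs1, 7 for Socs3, 4 for Cish and 2 for Stat3. Stat5a and Stat5b had 2 each at 1 of their 2 starts, and Pim1 had 9 and 1 at its starts. None was found for Stat4 or Bcl6. The matches of Cish and some of those of Socs3 and Pim1 overlap, so they are not all separate sites. A match is a description of letters, and neither a match nor its absence shows whether a factor binds there.

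**Figure D1:**
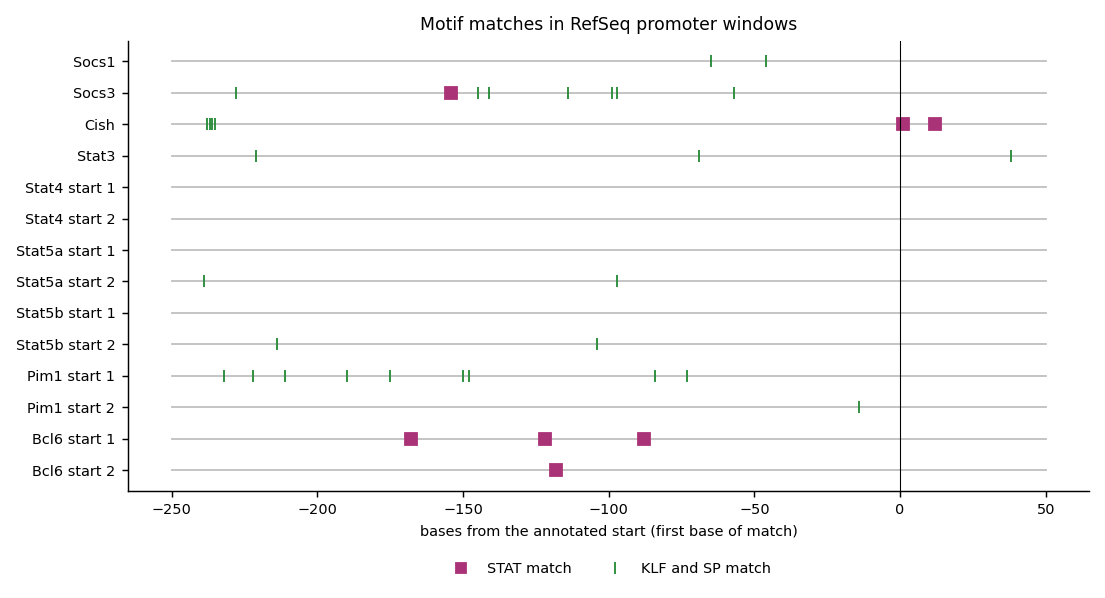
Matches to the STAT motif (squares) and the KLF and SP motif (ticks) in the 14 RefSeq windows of 9 genes, by distance in bases of the first base of the match from the annotated start (vertical line). STAT matches are seen for Socs3, Cish and the 2 starts of Bcl6, and those of Cish lie past the start.

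The intensity of the main Klf3 probe set ranged from 294.9 to 703.9 over 9 WT arrays and from 67.7 to 175.3 over 9 KO arrays, and 2 other Klf3 probe sets were likewise lower in each KO array than in every WT array. A further one went the other way, at 398 to 595 in KO and 128 to 325 in WT at 0 h, and at 294 to 419 and 116 to 226 after vehicle. The remaining Klf3 probe sets were also higher in KO at 0 h. They read 53.1 to 84.3 in KO against 28.7 to 44.8 in WT, and 19.4 to 31.3 against 13.7 to 16.7. After LPS the former was lower in KO, at 63.0 to 64.4 against 73.5 to 117.2. Which Klf3 probe sets lie in the deleted part is not given. The 8 measured macrophage markers of a list of 9 summed to 28695 to 30456 in WT after LPS and 24498 to 26025 in KO after LPS. Without LPS the sum was 24650 to 26244. All 8 were above the nonspecific level in every group. That level was set on each array from 23 nonspecific controls, at their 95th percentile, and lay at an intensity of 13.1 to 23.2. Of 7 measured neutrophil genes, 0 to 2 per group were above it, with a summed intensity of 51.0 to 103.5 without LPS, 498 to 836 in WT after LPS and 427 to 603 in KO after LPS. S100a9, Mpo, Elane, Ltf and Cxcr2 were at or under it in every array. Markers of dendritic, mast and stromal cells were above it in 0 of 4, 0 of 4 and 0 of 5 measured genes. Those of T and NK cells and of B cells were above it in 0 to 1 of 7 and 0 to 1 of 5 genes. Monocyte markers (2 of 4 measured) summed to 477 to 645 in KO at 0 h and 55.4 to 151 in WT at 0 h. After vehicle the genotypes overlapped, at 24.2 to 176 in KO and 44.2 to 64.5 in WT. The part of these cells in any result was not tested, and in bulk RNA fewer cells of a type and less RNA per cell cannot be told apart. Each plate row held samples of 1 condition, so row and condition cannot be told apart.

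LPS for 8 h raised Socs1, Socs3, Cish, Stat3, Stat5a and Pim1 in WT macrophages and lowered Stat4, a change that rests on intensities near background. In KO macrophages it raised Socs1, Socs2, Socs3, Cish, Stat3, Stat5a and Pim1, and lowered Stat5b and Bcl6. The response differed between genotypes for Cish, Socs2 and Bcl6. In limma's test, with Benjamini-Hochberg adjustment over all 17097 genes and a threshold of 0.05, 6 of the 10 genes were higher and 1 lower in WT, against 13.7% of all genes higher and 18.7% lower. In KO, 7 were higher and 2 lower, against 13.9% and 20.6%. The difference of the response (KO minus WT) was past the threshold for 2 genes upward and 1 downward, against 0.515% and 0.591% of all genes. The median log2 change of the 10 genes was 0.74 in WT and 1.49 in KO, and that of all genes -0.01 and -0.03. LPS against vehicle in each genotype, KO against WT and their difference share arrays, so they are not independent of one another.

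**Figure D2:**
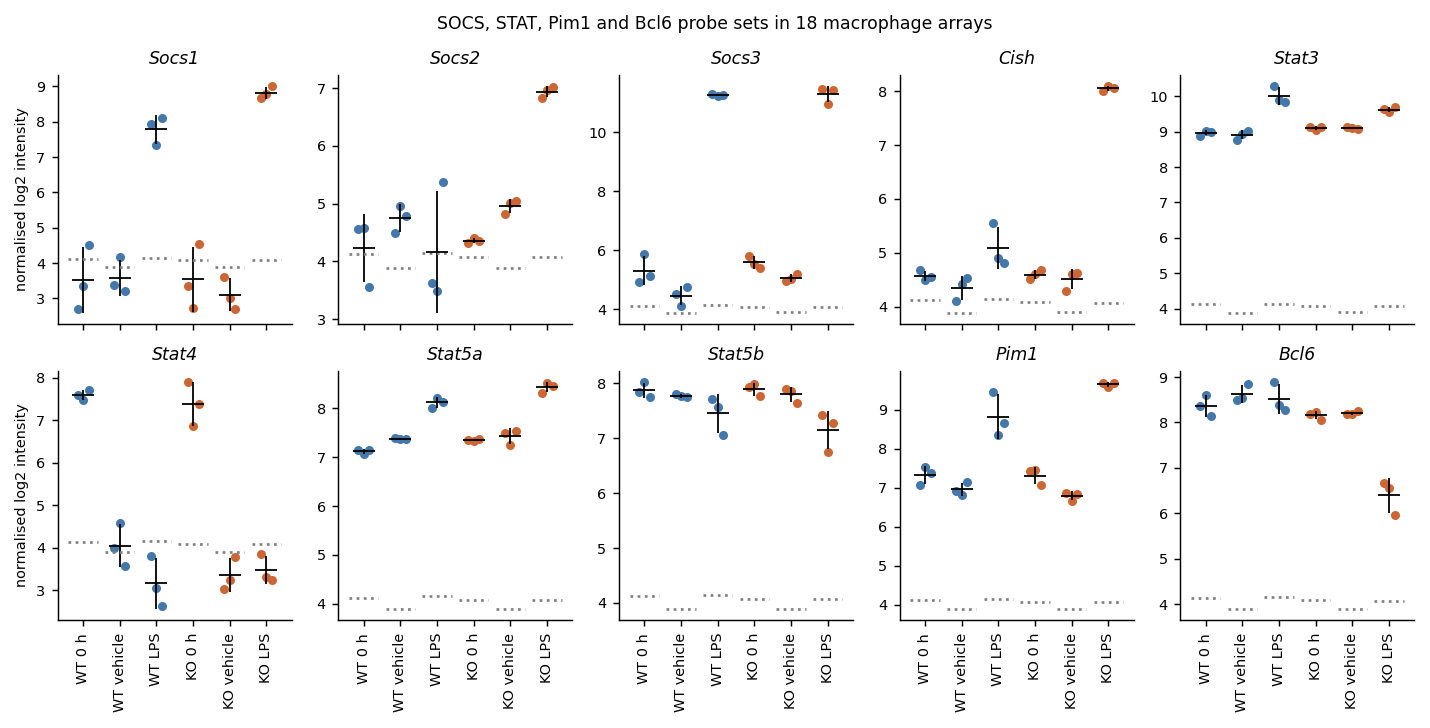
Normalised log2 intensity of each gene's main probe set in the 18 arrays, as points by group (blue WT, orange KO), with the mean and SD of 3 arrays in black and the mean nonspecific level of each group as a dotted line. Cish and Socs2 stand at a high level only in the KO LPS arrays, Bcl6 is lowest there, and Stat4 is high only at 0 h.

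Cish, which encodes CIS, was near the nonspecific level in all groups but KO after LPS. Its normalised intensities in WT were 25.6, 22.6 and 23.4 at 0 h, 17.1, 21.3 and 23.1 with vehicle, and 46.7, 30.1 and 28.0 with LPS. The KO arrays read 22.9, 24.3 and 25.5 at 0 h, 19.6, 24.4 and 24.8 with vehicle, and 256.6, 273.7 and 265.9 with LPS. The 3 KO LPS arrays lay above every other array, and the 3 WT LPS arrays lay above the WT vehicle arrays without overlap. The log2 change with LPS was 3.54 ± 0.17 (SE, n = 3 and 3, limma adjusted p = 1.37e-10) in KO, an 11.6-fold rise. In WT it was 0.74 ± 0.17 (adjusted p = 0.00243), a 1.67-fold rise, and the difference of the responses was 2.80 ± 0.24 (adjusted p = 1.68e-05). After LPS, Cish was 7.80-fold higher in KO than in WT (log2 2.96 ± 0.17, adjusted p = 4.21e-08).

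The call of the small WT rise of Cish depended on scaling, and its size also on 1 array. Without WT replicate 1, the log2 change was 0.39 (adjusted p = 0.0456). On the deposited values without normalisation it was 0.16 (adjusted p = 0.561), and with arrays scaled to equal hybridisation controls 0.17 (adjusted p = 0.684). The WT LPS array of replicate 1 also had the highest nonspecific level of all 18 arrays (23.2, against 16.1 and 14.9 in the other WT LPS arrays). Its Gapdh 5' minus 3' signal, a sign of RNA integrity, was -0.07 on the log2 scale, against -0.40 and -0.63. Over all arrays this signal was 0.0042 to 0.16 at 0 h, -0.08 to -0.30 after vehicle and -0.07 to -0.63 after LPS, so it moved with the LPS and vehicle changes, and its part in them was not tested.

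Socs2, whose product binds the growth hormone and other receptors, showed the same split with more scatter. Its intensities in WT were 23.5, 24.0 and 11.8 at 0 h, 22.4, 31.2 and 27.6 with vehicle, and 12.4, 11.3 and 41.7 with LPS. The KO arrays read 20.1, 21.3 and 20.3 at 0 h, 28.3, 32.4 and 33.2 with vehicle, and 114.0, 125.5 and 130.1 with LPS. As for Cish, the KO LPS arrays lay above all 15 others, while the WT LPS arrays were spread around the vehicle arrays and 1 of 3 was above the nonspecific level. The log2 change in KO was 1.98 ± 0.37 (adjusted p = 0.00041), a 3.94-fold rise, and in WT -0.58 ± 0.37 (adjusted p = 0.271). The WT change passed the threshold on the deposited values (-1.10, adjusted p = 0.0227) and with equal hybridisation controls (-1.09, adjusted p = 0.017). Without WT replicate 3, whose LPS array stood apart, the WT change was -1.16 (adjusted p = 0.000147), but both WT LPS arrays left lay under the nonspecific level. With all arrays and values raised to that level, the WT change was -0.10. After LPS, Socs2 was higher in KO than in WT by 2.77 ± 0.37 on the log2 scale (adjusted p = 0.000259), and by 2.30 with the WT arrays under the nonspecific level raised to it.

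The difference of the Socs2 response was 2.56 ± 0.52 (adjusted p = 0.0212), and its call depended on which arrays were used. With all arrays and values raised to the nonspecific level, the difference was 2.08. It was 3.14 (adjusted p = 7.82e-06) without WT replicate 3, where both WT LPS arrays left lay under that level. It missed the threshold without each of the other replicates, at 2.42 (adjusted p = 0.0637) without WT replicate 1 and 2.11 (adjusted p = 0.16) without WT replicate 2. Without KO replicate 1, 2 or 3 it was 2.54 (adjusted p = 0.111), 2.57 (adjusted p = 0.153) and 2.56 (adjusted p = 0.115). A dimmer Socs2 probe set, under the nonspecific level in all WT arrays, read 32.6, 42.1 and 47.8 in the KO LPS arrays. In a fit of every probe set, its difference of the response was 1.97 ± 0.25 (adjusted p = 0.000979). The other Socs2 probe sets were at or under the nonspecific level in every array, and with the mean of the 4 probe sets the log2 difference between KO and WT after LPS was 1.47 (adjusted p = 1.72e-05).

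Socs3 and Socs1, the feedback inhibitors known from LPS signalling, rose in WT and KO to many times their vehicle level. Socs3 intensities were 23.2, 17.3 and 26.9 in the WT vehicle arrays and 2521.9, 2402.4 and 2444.4 in the WT LPS arrays. The KO arrays read 30.8, 33.0 and 37.0 with vehicle and 2832.3, 2004.4 and 2774.7 with LPS. The LPS arrays of the genotypes overlapped. The rise was 111-fold in WT (log2 6.80 ± 0.22, adjusted p = 2.41e-12) and 74.8-fold in KO (log2 6.23 ± 0.22, adjusted p = 5.13e-12). After LPS, KO minus WT was 0.03 ± 0.22 (95% interval -0.43 to 0.49, adjusted p = 0.966).

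Socs1 was at the nonspecific level without LPS, and the LPS arrays of the genotypes did not overlap. Its intensities after vehicle were 10.5, 17.9 and 9.2 in WT and 12.2, 8.0 and 6.5 in KO. After LPS they were 242.4, 160.8 and 277.5 in WT and 408.4, 438.2 and 517.0 in KO. The WT rise was 4.20 ± 0.45 on the log2 scale (adjusted p = 1.96e-06), with 1 of 3 vehicle arrays above the nonspecific level, and 3.80 with the dimmer arrays raised to that level. The rise was at least 30.4-fold in KO (log2 5.71 ± 0.45, adjusted p = 4.7e-08), where every vehicle array was at or under the nonspecific level. The spread of the dim arrays is shared by the fit, and KO minus WT after LPS, 1.03 log2, missed the threshold (adjusted p = 0.221). It passed with values raised to the nonspecific level, which removes scatter below it (1.03, adjusted p = 0.00211), with a pseudocount of 16 (0.98, adjusted p = 0.0163), and with arrays scaled to equal hybridisation controls (1.52, adjusted p = 0.0416). Its response differed by 1.51 between genotypes (adjusted p = 0.341), which passed the threshold with values raised to that level only (1.12, adjusted p = 0.041).

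Among the STAT genes, Stat3 and Stat5a rose with LPS in both genotypes, Stat5b fell in KO, and Stat4 was near background in all 8 h samples. Stat3, which mediates interleukin 6 and 10 signalling, read 437.6, 491.7 and 522.4 with vehicle and 1252.3, 941.5 and 913.7 with LPS in WT. In KO it read 555.8, 545.9 and 537.0 with vehicle and 791.5, 744.4 and 826.1 with LPS. Every WT LPS array lay above every KO LPS array, with WT replicate 1 the highest. Stat3 rose 2.12-fold in WT (log2 1.09 ± 0.12, adjusted p = 2.82e-06) and 1.44-fold in KO (log2 0.53 ± 0.12, adjusted p = 0.00239). KO minus WT of that response was -0.56 ± 0.17 (adjusted p = 0.154). After LPS, KO minus WT was -0.38 (adjusted p = 0.0773), and it passed with the filter on dim genes (adjusted p = 0.0351) and with a pseudocount of 16 (adjusted p = 0.0274). Its rise in KO missed the threshold on the deposited values (0.63, adjusted p = 0.073), with equal hybridisation controls (0.66, adjusted p = 0.153) and with the mean of its probe sets (0.36, adjusted p = 0.135). The WT rise missed it with equal hybridisation controls (0.69, adjusted p = 0.0891) and was 0.68 on the deposited values (adjusted p = 0.0362).

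Stat5a and Stat5b, which encode the closely related STAT proteins downstream of GM-CSF and interleukin 3, did not move together. Stat5a intensities in WT were 168.2, 165.8 and 164.7 with vehicle and 257.0, 298.2 and 281.8 with LPS. The KO arrays read 181.6, 151.3 and 185.8 with vehicle and 319.0, 367.4 and 351.1 with LPS. The LPS arrays lay above the vehicle arrays in each genotype, and the KO LPS arrays above the WT LPS arrays. The other Stat5a probe set read 136.2, 68.5 and 59.6 in the WT LPS arrays and 97.8, 106.6 and 115.6 in the KO LPS arrays, an overlap. It rose with LPS by 0.73 in WT and 0.96 in KO. From 0 h to vehicle that probe set fell by 0.59 in WT and 0.69 in KO, while the main one rose by 0.26 and 0.08. None of these vehicle changes passed the threshold. Stat5a rose 1.68-fold in WT (log2 0.74 ± 0.11, adjusted p = 3.42e-05) and 2.01-fold in KO (log2 1.00 ± 0.11, adjusted p = 1.18e-06). KO minus WT of that response was 0.26 (adjusted p = 0.525), and KO minus WT after LPS was 0.31 (adjusted p = 0.102). The latter passed with the filter on dim genes (adjusted p = 0.0405), a pseudocount of 16 (0.29, adjusted p = 0.0234) and the deposited values (0.71, adjusted p = 0.0263). The WT rise was 0.43 with arrays shifted to the same median (adjusted p = 0.0319), 0.04 on the deposited values (adjusted p = 0.869) and 0.06 with equal hybridisation controls (adjusted p = 0.901).

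Stat5b read 222.7, 216.9 and 214.4 with vehicle and 210.5, 190.5 and 133.2 with LPS in WT. In KO it read 237.5, 231.7 and 199.8 with vehicle and 171.0, 108.0 and 155.0 with LPS. The LPS arrays were lower than the vehicle arrays in each genotype, and the LPS arrays of WT and KO overlapped. It fell 1.57-fold in KO (log2 -0.65 ± 0.18, adjusted p = 0.00843), a change that was -0.42 (adjusted p = 0.147) without KO replicate 2. It was -0.80 with equal hybridisation controls (adjusted p = 0.0669) and -0.22 with the mean of its probe sets (adjusted p = 0.463). The other Stat5b probe set gave 0.21 ± 0.31 in KO (adjusted p = 0.683), so the probe sets disagreed. In WT the Stat5b change was -0.32 (adjusted p = 0.2), and it was past the threshold under 3 other scalings, at -0.63 with arrays shifted to the same median (adjusted p = 0.047), at -1.02 on the deposited values (adjusted p = 0.00361) and with equal hybridisation controls (adjusted p = 0.011).

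Stat4, which mediates interleukin 12 signalling, had 1 WT vehicle array above the nonspecific level and none of the WT LPS, KO vehicle or KO LPS arrays above it. Its log2 change with LPS in WT was -0.88 ± 0.32 (adjusted p = 0.0463), and with values raised to that level 0.02 (adjusted p = 0.93). The change was -0.56 (adjusted p = 0.367) without WT replicate 2, and -0.85 (adjusted p = 0.113) without WT replicate 3. It stayed at -0.88 without KO replicate 2 (adjusted p = 0.0554) or KO replicate 3 (adjusted p = 0.0601), and with the plate column as a block (adjusted p = 0.0633). It was -0.38 with a pseudocount of 16 (adjusted p = 0.159), and no fold is given. In KO the change was 0.12 (adjusted p = 0.82).

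Pim1, which encodes a serine/threonine kinase that favours cell survival, rose in each genotype, and the KO LPS arrays were the highest. Its intensities in WT were 120.5, 113.4 and 141.4 with vehicle and 703.1, 327.7 and 403.4 with LPS. In KO they were 117.5, 101.1 and 114.1 with vehicle and 821.0, 765.7 and 818.4 with LPS. The KO LPS arrays lay close together, and WT replicate 1 stood well above the other WT LPS arrays. Pim1 rose 3.64-fold in WT (log2 1.86 ± 0.21, adjusted p = 4.27e-06) and 7.24-fold in KO (log2 2.86 ± 0.21, adjusted p = 2.66e-08). The difference of the response, 0.99 ± 0.30 (95% interval 0.35 to 1.64), missed the threshold (adjusted p = 0.157). Without WT replicate 1 it was 1.33 (adjusted p = 0.0121).

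After LPS, Pim1 was 1.77-fold higher in KO than in WT (log2 0.82 ± 0.21, adjusted p = 0.0322). That call was lost without WT replicate 2 (0.59, adjusted p = 0.17) or 3 (0.74, adjusted p = 0.121), and without KO replicate 1 (0.81, adjusted p = 0.12), 2 (0.86, adjusted p = 0.115) or 3 (0.81, adjusted p = 0.111). With arrays shifted to the same median it was 1.04 (adjusted p = 0.0517), without normalisation 1.26 (adjusted p = 0.0184) and when hybridisation controls were made equal 1.30 (adjusted p = 0.0148).

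Bcl6 fell with LPS in KO, and its change in WT did not pass the threshold after quantile normalisation. Its intensities in WT were 359.3, 369.4 and 463.5 with vehicle and 472.7, 334.2 and 308.8 with LPS. In KO they were 290.3, 291.8 and 302.8 with vehicle and 101.0, 94.7 and 62.1 with LPS. The KO LPS arrays lay below all 15 others, and the WT LPS arrays overlapped the WT vehicle arrays. Bcl6 fell 3.51-fold in KO (log2 -1.81 ± 0.19, adjusted p = 1.33e-06), and its change in WT was -0.11 ± 0.19 (adjusted p = 0.728).

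The difference of the Bcl6 response was -1.70 ± 0.27 (adjusted p = 0.00439), which became -1.32 without normalisation (adjusted p = 0.068) and -1.31 when hybridisation controls were made equal (adjusted p = 0.184). On the deposited values the WT change was -0.70 (adjusted p = 0.0363). After LPS, Bcl6 was 4.35-fold lower in KO than in WT (log2 -2.12 ± 0.19, adjusted p = 6.98e-06). The other Bcl6 probe set read 336.6, 140.3 and 135.0 in the WT LPS arrays and 43.9, 21.3 and 54.3 in the KO LPS arrays. It gave -2.32 ± 0.33 for KO minus WT after LPS (adjusted p = 0.000541) and -1.89 ± 0.46 for the difference of the response (adjusted p = 0.0843). With LPS this probe set changed by -0.71 ± 0.33 in WT (limma adjusted p = 0.135) and by -2.61 ± 0.33 in KO (adjusted p = 1.01e-05).

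**Figure D3:**
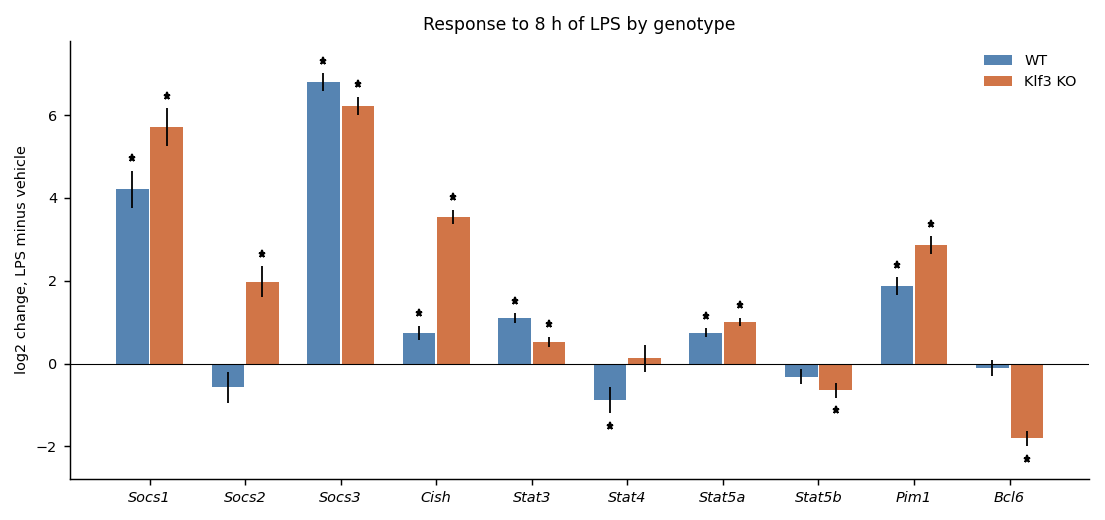
Log2 change from vehicle to 8 h of LPS for each gene in WT (blue) and KO (orange), as bars with the SE of the fit, and a star where the limma adjusted p is under 0.05. Cish rises by 0.74 in WT and 3.54 in KO, Socs2 changes by -0.58 and 1.98, and Bcl6 by -0.11 and -1.81.

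Between genotypes, 4 of the 10 genes differed past the threshold after LPS, and none at 0 h or after vehicle. After LPS, 3 were higher in KO (Cish, Socs2, Pim1) and 1 lower (Bcl6), against 2.82% and 3.15% of all genes. The median of the 10 was 0.31 and that of all genes -0.02. At 0 h, 0 of 10 passed in limma's test, against 0.14% of all genes, and 1 of 10 had an unadjusted p under 0.05, against 1063 of all genes. That gene was Stat5a, named after its value was seen, at 0.23 ± 0.11. After vehicle, 0 of 10 passed in limma's test, against 0% of all genes (no gene passed), and 3 of 10 had an unadjusted p under 0.05, against 778 of all genes. These 3, also named after their values were seen, were Socs3 (0.60 ± 0.22), Bcl6 (-0.42 ± 0.19) and Stat4 (-0.69 ± 0.32). No other tool was run, and both counts stayed at 0 of 10 under all 17 alternatives.

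**Figure D4:**
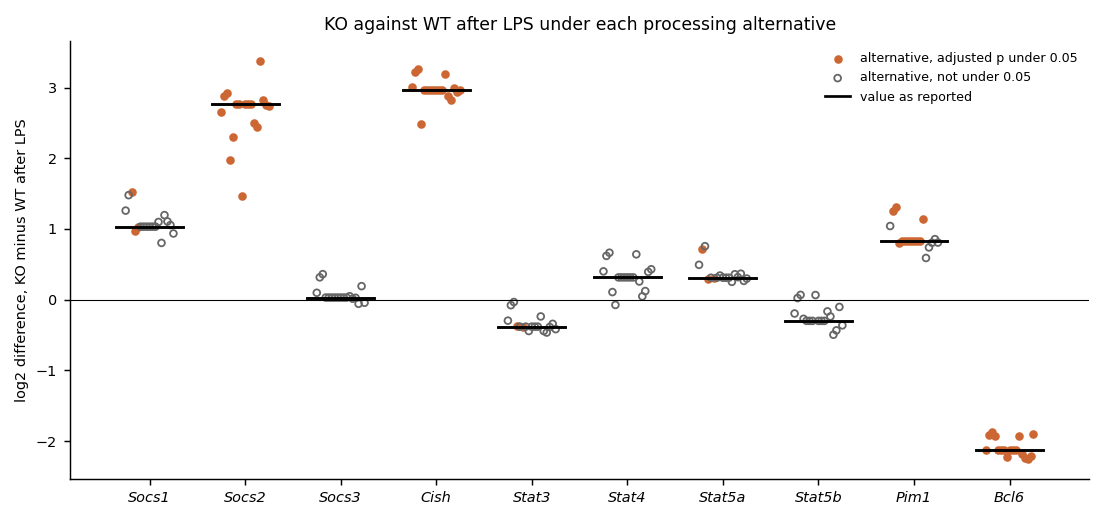
Log2 difference between KO and WT after LPS for each gene under 17 alternatives of scaling, filtering, blocking and left-out replicates (points, filled where the adjusted p is under 0.05), with the reported value as a bar. Cish, Socs2 and Bcl6 keep their sign and stay past the threshold under each alternative, and Pim1 stays above 0 but not always past the threshold. Socs3 runs from -0.06 to 0.36 and passes under none.

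The deposited values differed in overall brightness between the groups, with the WT LPS arrays the dimmest by upper quartile. The upper quartile of the deposited intensity was 67.0 to 75.9 in the WT LPS arrays, 76.2 to 107 in the KO LPS arrays and 97.6 to 167 in the other arrays. The median of all genes for KO minus WT after LPS was -0.02 after quantile normalisation, 0.07 with arrays shifted to the same median, 0.29 without normalisation and 0.34 with equal hybridisation controls. Relative to that median, Cish was higher by 2.98 after quantile normalisation and by 2.93 under each other scaling. Those other scalings differ only by a constant per array, so their equal values were fixed in advance and are not separate checks. Socs2 was higher by 2.79 and 2.59, Pim1 by 0.84 and 0.97, and Bcl6 stood at -2.10 and -2.20. For LPS in WT the median of all genes was -0.01 after quantile normalisation, -0.05 with the median shift, -0.44 without normalisation and -0.43 with equal hybridisation controls. Relative to it, Cish was higher by 0.75 and 0.60, Stat3 by 1.09 and 1.12, and Stat5a by 0.75 and 0.48.

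The split of all genes past the threshold moved with scaling too. For LPS in WT it was 2336 higher and 3191 lower, then 1580 and 3866 with the median shift, 743 and 6702 without normalisation, and 631 and 4881 when hybridisation controls were made equal. For the difference of the response it was 88 and 101, then 145 and 42, 278 and 16, and 112 and 10. For KO minus WT after LPS it was 482 and 538, then 514 and 235, 1238 and 129, and 515 and 81. For vehicle against 0 h it was 1225 and 1198 in WT, then 466 and 1411, 222 and 1465, and 171 and 601. In KO it was 1155 and 990, then 338 and 2047, 199 and 1559, and 128 and 623. At 0 h, KO against WT gave 19 and 5, then 16 and 9, 10 and 9, and 15 and 12.

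The change from 0 h to 8 h in vehicle, during which L929 medium was absent, lowered Stat4 in each genotype and Socs3 in WT. Stat4 intensities in WT were 192.9, 178.8 and 208.3 at 0 h and 15.8, 23.8 and 11.8 after vehicle. In KO they were 236.6, 115.9 and 166.2 at 0 h and 8.1, 9.5 and 13.8 after vehicle. Stat4 was well above the nonspecific level at 0 h only. Its log2 change in WT was -3.55 ± 0.32 (adjusted p = 6.68e-06), with 1 of 3 vehicle arrays above the nonspecific level, and -3.47 with the dimmer arrays raised to it. It fell at least 11.2-fold in KO (log2 -4.03 ± 0.32, adjusted p = 1.82e-06).

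Socs3 intensities at 0 h were 30.6, 58.4 and 35.2 in WT and 56.3, 46.8 and 42.3 in KO. It fell 1.80-fold in WT after vehicle (log2 -0.85 ± 0.22, adjusted p = 0.0145), a call lost without WT replicate 2, the highest 0 h array (-0.39, adjusted p = 0.263), and with equal hybridisation controls (-0.92, adjusted p = 0.119). With a pseudocount of 16 it was -0.56 (adjusted p = 0.0249). In KO the Socs3 change was -0.52 (adjusted p = 0.14), and without WT replicate 2, through the shared spread, -0.52 (adjusted p = 0.0478). Likewise in KO, Pim1 (-0.52) passed without WT replicate 1 (adjusted p = 0.0242) and Socs2 (0.60) without WT replicate 3 (adjusted p = 0.00936). In WT, Stat5a passed with a pseudocount of 16 (0.23, adjusted p = 0.0418). In all, 0 genes were higher and 2 lower in WT, against 7.16% and 7.01% of all genes. In KO 0 were higher and 1 lower, against 6.76% and 5.79%. For the difference of these changes, 0 of 10 passed in limma's test, against 0% of all genes, and at an unadjusted p under 0.05 there were 0 of 10 and 628 of all genes.

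Of the cytokines and receptors that activate STAT5, Csf2, which encodes GM-CSF, was also high in the KO LPS arrays alone. Csf2 lay under the nonspecific level in all 9 WT arrays and in the KO arrays without LPS, and read 480.8, 846.1 and 548.4 in the KO LPS arrays. It rose at least 40.8-fold with LPS in KO (log2 6.47 ± 0.19, adjusted p = 1.12e-12) and was at least 34.2-fold higher in KO than in WT after LPS (adjusted p = 9.39e-12). Of 17 measured genes of this list, 2 were higher with LPS in WT and 7 in KO, against 13.7% and 13.9% of all genes. None was lower, against 18.7% and 20.6%. Il15ra, the interleukin 15 receptor chain, rose by 2.52 in WT and 1.47 in KO on the log2 scale. After LPS, 3 of 17 were higher in KO than in WT, against 2.82% of all genes, with a median of 0.02 over the list. These were Csf2, Tslp (1.15, at least 1.10-fold against background) and Il15 (1.12, with KO and WT arrays that overlapped). Csf2rb, the signalling chain of the GM-CSF receptor, did not differ past the threshold between the genotypes after LPS (0.07 ± 0.14) and rose with 8 h in vehicle by 1.72 in WT and 1.44 in KO. Its close copy Csf2rb2 rose by 2.40 and 2.38, and the array may not separate these 2 genes.

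Of 14 other known STAT5 targets measured, 8 were higher and 1 lower with LPS in WT, against 13.7% and 18.7% of all genes. In KO 7 were higher and 3 lower, against 13.9% and 20.6%. Their median change was 0.77 in WT and 0.86 in KO. The difference of the response was past the threshold for Ccl17 (2.12 ± 0.23, adjusted p = 0.000196), a chemokine gene, and for no other gene of the list. After LPS, Ccl17 was 4.62-fold higher in KO than in WT, and Gadd45g, a growth arrest gene, was 1.84-fold lower. In vehicle against 0 h, 6 of 14 fell and 1 rose in each genotype. Of all genes, 7.01% fell and 7.16% rose in WT, and 5.79% and 6.76% in KO. Ccnd1 and Ccnd2, which encode D-type cyclins, fell by 5.04 and fell by 3.22 in WT on the log2 scale, and in KO Ccnd1 fell by 5.17 and Ccnd2 fell by 3.64. Myc fell by 2.94 in WT and fell by 3.45 in KO, and the survival gene Bcl2 fell by 3.23 in WT and fell by 2.54 in KO.

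Of 14 measured STAT3-activating cytokines and receptors, 3 were higher in KO than in WT after LPS and 2 lower, against 2.82% and 3.15% of all genes, with a median of -0.10. Il6 was 7.96-fold higher, Csf3, which encodes G-CSF, 5.75-fold, and Lif at least 6.53-fold, while the G-CSF receptor gene Csf3r was 3.71-fold lower. With LPS against vehicle, 4 rose and 3 fell in WT, against 13.7% and 18.7% of all genes. In KO 5 rose and 3 fell, against 13.9% and 20.6%. Of 12 other known STAT3 targets, 9 rose and 1 fell in WT and 6 rose and 1 fell in KO, against the same shares. After LPS, 0 were higher and 3 lower in KO than in WT, against 2.82% and 3.15% of all genes, with a median of -0.27. The latter were Timp1, an inhibitor of metalloproteinases (7.65-fold), Fos (2.38-fold) and Etv3 (1.43-fold). Of 8 genes that act on STAT4, 3 rose in WT with LPS, and 5 rose and 1 fell in KO, against the same shares for LPS. In KO against WT after LPS, 3 were higher and 1 lower, against 2.82% and 3.15% of all genes, with a median of 0.34. Il12a, a subunit of interleukin 12, was higher there by 3.81 on the log2 scale, and by 2.83 with dim arrays raised to the nonspecific level. Stat4 itself was under that level.

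The counts in this paragraph stand against 13.7% of all genes higher and 18.7% lower with LPS in WT, and 13.9% and 20.6% in KO. After LPS, 2.82% of all genes were higher in KO than in WT and 3.15% lower. Of 4 JAK genes, 3 rose with LPS in WT and 2 in KO, and 1 was lower in KO than in WT after LPS. Their median change was 1.06 in WT and 0.73 in KO. Jak2 rose 7.92-fold in WT and 7.83-fold in KO. Jak3 rose 2.46-fold in WT and was 1.92-fold lower in KO than in WT after LPS (adjusted p = 0.00236). Of 10 STAT inhibitors and phosphatases, 5 rose and 4 fell in WT and 4 rose and 5 fell in KO, and none differed past the threshold between the genotypes after LPS. Ptpn1, a phosphatase that acts on JAK2 and TYK2, rose 1.84-fold in WT, and Pias3, an inhibitor of STAT3, fell 2.06-fold in WT and 2.84-fold in KO. Of 6 other measured SOCS and STAT genes, 1 rose and 3 fell in WT and 1 rose and 2 fell in KO. Stat2, which acts in type I interferon signalling, rose 5.56-fold in WT and 5.38-fold in KO, and Socs6 fell 4.89-fold and 3.69-fold. Of 5 measured BCL6 partners and targets, 2 were higher in KO than in WT after LPS. These were the chemokine gene Ccl2 (2.75-fold) and the corepressor gene Bcor (2.24-fold).

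By the rule for likeness, the 3 genes with the highest Pearson correlation to each of the 10 over the 18 arrays are given as a description. The arrays of a group share their treatment, so these values follow the groups. For Cish they were Adamts4 (0.99), Csf2 (0.98) and Macc1 (0.97). For Socs2 they were Gtf2b (0.90), Ppard (0.90) and Cilk1 (0.90), and for Bcl6 Ctnnbip1 (0.92), B4galt6 (0.91) and Dgka (0.90). For Socs1 they were Ptgs2 (0.98), Gbp2b (0.98) and Xkr8 (0.97). For Socs3 they were Gpd2, Traf1 and AA467197, each at 0.99. For Stat4 they were Bid (0.98), Cdc6 (0.97) and Bank1 (0.97), and for Stat5a Abcc4 (0.99), Zc3h12a (0.98) and Slc25a44 (0.98). For Stat5b they were Il16 (0.94), Fgd2 (0.94) and Itgam (0.94). For Stat3 the nearest were Tcea1 (0.96), Rapgef2 and Nos2, and for Pim1 Stk40 (0.99), Ticam1 (0.98) and Il18 (0.98).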

How the data were processed

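RNA of 18 macrophage samples was read on arrays. The authors deposited a linear intensity for each probe set. The submitters' processing notes name Partek, whose version is not given in the sources used here, nor are background correction or scaling. The planned fit had assumed log2 values normalised between arrays, and as these were neither, log2 values were taken from the deposited intensity and quantile-normalised over all 45141 probe sets. After 104 control probe sets were left out, 28898 of 45037 had 1 gene symbol (551 had several, 15588 none), which gave 17097 genes. A linear model over the 18 arrays with 6 group means was run in limma 3.58.1 (R 4.3.3, lmFit, eBayes, two-sided, Benjamini-Hochberg over all genes, threshold 0.05), after a check on simulated data. No filter on dim genes was applied. A fold against a group at or under the nonspecific level is given as "at least". Promoters came from RefSeq (GRCm38.p6). From each list the 4 genes with the largest changes past the threshold could be named. Other scalings, a pseudocount, a floor, a dim filter, probe set rules, blocks and left-out replicates were the alternatives. The number of arrays limits the precision. The genes and lists were chosen with earlier results of these data known.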

Additional observations from a re-analysis of the deposited data

Results flagged for a closer look

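The LPS response differed between KO and WT, by the interaction contrast of limma adjusted over all 17097 genes, for 3 of the 10 genes. The difference (KO minus WT, log2) was 2.80 for Cish (adjusted p = 1.68e-05) and 2.56 for Socs2 (adjusted p = 0.0212). For Bcl6 it was -1.70 (adjusted p = 0.00439). In all 3 KO LPS arrays Cish and Socs2 were above, and Bcl6 below, every other array. Socs1, Stat5a and Pim1 were also above every other array there, though their difference of the response missed the threshold. How many of all genes separate in this way was not counted.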

How the results depend on the processing

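Of 90 gene results (10 genes in 9 comparisons), 26 were past the threshold, and 16 of these stayed past it under each of 17 alternatives. The sign held in 25 of the 26. The exception was Stat4 with LPS in WT, which turned to 0.0236 with values raised to the nonspecific level, since its arrays lie near that level. Of the 64 not past the threshold, 12 passed under at least 1 alternative. With a pseudocount of 16, the genes past the threshold for KO against WT after LPS went from 4 to 7. For vehicle against 0 h in WT they went from 2 to 1 with equal hybridisation controls and ran from 1 to 2 with a replicate left out. A pseudocount of 16 added Stat5a in that comparison (0.23, adjusted p = 0.0418). In KO the count ran from 1 to 2 with a replicate left out. The cause was not tested. Samples with the same replicate number did not deviate together (correlations of -0.05 to 0.14 within a genotype, 2 of 18 over 0.1, and -0.08 to 0.11 between genotypes, 1 of 9 over 0.1). With the replicate block, the Socs2 difference of the response kept its value of 2.56 with an adjusted p of 0.0691, and no other call of the 10 genes changed. Over all genes, the counts higher and lower for that contrast (88 and 101 as reported) were 76 and 78 with the block, 154 and 171 with a pseudocount of 16, 129 and 160 with the dim filter, 35 and 36 without WT replicate 2, 53 and 61 without KO replicate 1, 29 and 41 without KO replicate 2, and 45 and 49 without KO replicate 3. For KO against WT after LPS they were 275 and 270 without WT replicate 2, 205 and 229 without KO replicate 2 and 288 and 319 without KO replicate 3. At 0 h they were 34 and 19 with a pseudocount of 16, 30 and 15 with a floor at the nonspecific level, 20 and 12 with the replicate block, 12 and 17 without WT replicate 3, 3 and 0 without WT replicate 1, 3 and 1 without KO replicate 1, 1 and 0 without KO replicate 2 and 9 and 3 without KO replicate 3, against 19 and 5. For KO against WT after vehicle the highest count was 4 and 2, with equal hybridisation controls, against 0 and 0. For LPS in KO they were 1211 and 2231 with equal hybridisation controls. For vehicle against 0 h in WT they were 703 and 784 without WT replicate 2 and 640 and 597 without WT replicate 3, and in KO 396 and 362 without KO replicate 1 and 512 and 438 without KO replicate 2. Values near the nonspecific level (Cish in WT, Socs1 without LPS, Stat4 at 8 h, Socs2) limit how far a fold can be read.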
